A study of Rattus norvegicus with 6 samples.

Results

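The genes described here carry out DNA replication and mitosis. They were taken from a list of 42 symbols, 20 for the S-phase and 22 for mitosis, and a gene was a member where a row of the count tables had exactly that name. Such a row was found for 41 of the 42, out of 23139 genes listed, which left 19 S-phase and 22 mitotic members, and all 41 had enough reads to be tested. The missing name was Cdc45, a part of the replicative helicase, whose reads were listed in separate rows named Cdc45_1 and Cdc45_2. Cdc45_1 had 20, 29 and 58 counts under LPS + DMSO and 35, 28 and 35 under LPS + Siponimod, Cdc45_2 was at 0 in all 6 libraries, so that the value of Cdc45 is uncertain and was not tested.

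Polyadenylated RNA of primary microglia was sequenced in 6 libraries, with 3 biological replicates in each of 2 conditions. The cells came from the cortex of Wistar rats at postnatal day 1, were shaken off mixed cultures after 10 days and were selected with magnetic beads against CD11b/c. Both conditions received 100 ng/ml of lipopolysaccharide (LPS), a bacterial product that activates microglia, 1 day after isolation. The LPS + DMSO condition received the solvent with it, and the LPS + Siponimod condition received 50 µM siponimod, a modulator of sphingosine-1-phosphate receptors. No library of unstimulated cells or of siponimod without LPS is among the 6, so that the comparison asks only how siponimod changed the state of LPS-treated cells. Total counts were 39484979, 38301365 and 38080379 in LPS + DMSO replicates 1, 2 and 3, and 46643859, 43336006 and 38857441 in LPS + Siponimod replicates 1, 2 and 3. In such cultures, fewer cells of a kind and less RNA per cell cannot be told apart.

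A cell that is about to divide first loads the MCM2-7 helicase onto its replication origins, then opens the DNA and copies it with polymerases that are held on the template by the sliding clamp PCNA. Nucleotides for this come from ribonucleotide reductase and thymidylate synthase. After replication, CDK1 with its cyclins drives the cell into mitosis, where Aurora and Polo-like kinases, motor proteins and the spindle checkpoint separate the chromosomes. Transcription of these genes is known to come in waves, the first from E2F factors and the second from B-MYB-FOXM1 complexes. The latter act at the cell cycle genes homology region (CHR), which often has CCAAT boxes nearby. Microglia are macrophages of the brain that divide little in the healthy adult but can proliferate in culture and after injury.

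E2F sites were more frequent in promoters of the listed S-phase genes, and CHR elements in those of the listed mitotic genes. Neither motif kept the sets fully apart, since Cdk1 has an E2F site and Mcm2 and Prim1 have CHR elements. RefSeq windows of the GRCr8 assembly, from 250 bases before to 50 bases after the start of a gene, were found for 17 of the 20 listed S-phase genes (not for Mcm4, Cdc6 and Rrm2) and for 17 of the 22 mitotic genes (not for Foxm1, Ccna2, Aurkb, Ube2c and Tpx2). Both strands were searched for the E2F site (TTTCCCGC, TTTGGCGC, TTTCGCGC or TTTGCCGC), for the CHR element (TTTGAA or TTTAAA) and for the CCAAT box (CCAAT). The S-phase windows include that of Cdc45, whose expression was not tested. Matches of different motifs can overlap. An E2F site was found in 10 of the 17 S-phase promoters (58.8%) and in 1 of the 17 mitotic promoters (5.88%), that of Cdk1, against 2.25% of all 27457 promoters. A CHR element was found in 17 of the 17 mitotic promoters and in 2 of the 17 S-phase promoters (11.8%), against 27.9% of all promoters. A CCAAT box was present in 14 of the 17 mitotic promoters (82.4%) and in 12 of the 17 S-phase promoters (70.6%), against 37.7% of all. Among the 9003 promoters of genes that were tested, the shares were 4.29% for the E2F site, 18.4% for the CHR element and 38.3% for the CCAAT box. These matches describe the letters in the windows and say nothing of binding in these cells.

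**Figure D1:**
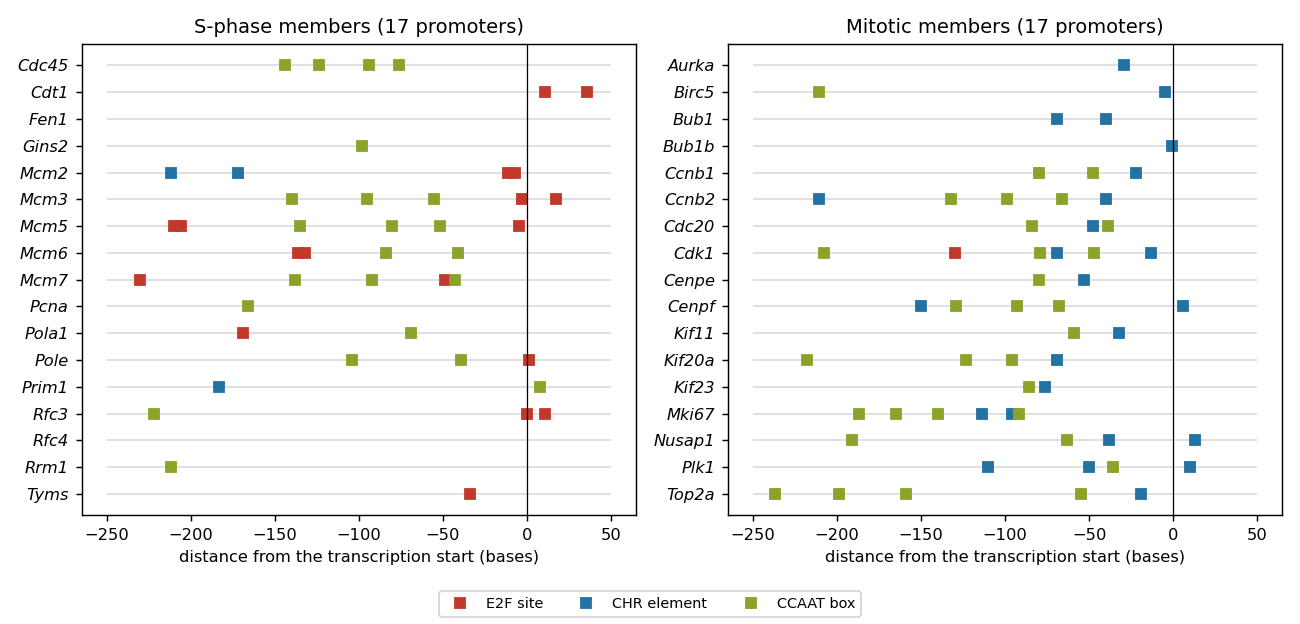
Positions of E2F sites (red), CHR elements (blue) and CCAAT boxes (green) in the RefSeq promoter windows of 17 S-phase genes (left) and 17 mitotic genes (right), as the distance in bases from the transcription start. E2F sites lie in 10 promoters on the left and in 1 on the right, and CHR elements in 2 on the left and in all 17 on the right.

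The 250 bases before the start are shown for 4 S-phase genes, since Mcm5 and Mcm7 encode subunits of one helicase and both have E2F sites but moved in opposite directions, and Tyms and Pcna were the called S-phase members with the lowest and the highest log2 FC. Capitals mark the matches. In Mcm5, E2F sites begin at bases 213, 209 and 8 before the start. Mcm7 has E2F sites at 233 and 52 before it, the nearer one overlapping a CCAAT box, and Tyms has an E2F site at 37 before it. Pcna has a CCAAT box and no match to the E2F letters searched. The assembly is GRCr8, whereas the counts were mapped to mRatBN7.2.
Mcm5, chr19:13488563-13488812, plus strand: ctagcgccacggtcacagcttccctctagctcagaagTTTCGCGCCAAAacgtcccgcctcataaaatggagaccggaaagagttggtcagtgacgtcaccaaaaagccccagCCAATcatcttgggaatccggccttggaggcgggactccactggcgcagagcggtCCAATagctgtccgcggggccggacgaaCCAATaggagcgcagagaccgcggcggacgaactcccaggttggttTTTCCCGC
Mcm7, chr12:22163179-22163428, minus strand: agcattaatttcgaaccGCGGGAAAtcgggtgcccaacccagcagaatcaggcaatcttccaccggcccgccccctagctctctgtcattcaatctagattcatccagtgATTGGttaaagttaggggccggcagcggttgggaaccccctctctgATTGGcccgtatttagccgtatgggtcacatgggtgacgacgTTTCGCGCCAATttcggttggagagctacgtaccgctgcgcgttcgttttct
Tyms, chr9:120776084-120776333, minus strand: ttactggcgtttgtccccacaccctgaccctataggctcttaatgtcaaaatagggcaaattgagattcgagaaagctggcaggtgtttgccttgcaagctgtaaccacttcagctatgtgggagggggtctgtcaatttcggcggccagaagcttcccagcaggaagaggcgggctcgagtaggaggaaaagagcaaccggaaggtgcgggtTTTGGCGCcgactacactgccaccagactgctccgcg
Pcna, chr3:139955821-139956070, minus strand: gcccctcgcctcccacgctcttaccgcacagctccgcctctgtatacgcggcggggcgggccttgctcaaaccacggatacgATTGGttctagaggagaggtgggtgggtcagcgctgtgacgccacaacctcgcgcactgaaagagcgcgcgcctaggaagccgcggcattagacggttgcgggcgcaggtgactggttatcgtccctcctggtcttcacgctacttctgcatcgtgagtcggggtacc

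For the mitotic members, Aurka, Top2a and Ccnb1 are shown, Aurka because its RNA fell, Top2a because it had the lowest log2 FC of all 41 members and Ccnb1 as the cyclin partner of CDK1. The CHR element begins at base 32 before the start in Aurka, at 22 in Top2a, where it lies on the other strand, and at 25 in Ccnb1. Ccnb1 and Top2a also have CCAAT boxes, and Aurka has none in this window.
Aurka, chr3:181560770-181561019, minus strand: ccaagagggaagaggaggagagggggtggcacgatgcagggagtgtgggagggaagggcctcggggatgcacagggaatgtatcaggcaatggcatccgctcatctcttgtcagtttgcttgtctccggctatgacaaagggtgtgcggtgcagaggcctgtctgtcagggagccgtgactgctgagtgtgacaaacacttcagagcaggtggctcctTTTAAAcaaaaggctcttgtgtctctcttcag
Top2a, chr10:84473094-84473343, minus strand: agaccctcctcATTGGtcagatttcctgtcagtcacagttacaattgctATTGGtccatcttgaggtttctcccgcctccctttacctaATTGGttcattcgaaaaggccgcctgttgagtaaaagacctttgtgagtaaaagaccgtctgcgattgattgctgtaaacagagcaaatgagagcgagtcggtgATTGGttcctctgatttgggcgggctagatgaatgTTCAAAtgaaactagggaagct
Ccnb1, chr2:33655226-33655475, minus strand: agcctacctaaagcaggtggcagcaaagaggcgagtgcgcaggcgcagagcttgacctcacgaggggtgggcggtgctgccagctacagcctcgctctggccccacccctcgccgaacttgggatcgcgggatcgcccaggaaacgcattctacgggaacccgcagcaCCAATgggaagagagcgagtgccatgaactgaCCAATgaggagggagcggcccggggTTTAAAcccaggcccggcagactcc

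Before the expression values, 2 libraries have to be named that stood apart. LPS + DMSO replicate 3, and to a smaller extent LPS + Siponimod replicate 3, held reads of oligodendrocyte lineage genes that were at or near 0 in the other 4 libraries. Of 11 markers of the oligodendrocyte lineage, Olig1, a transcription factor of that lineage, had 1, 5 and 515 counts in LPS + DMSO replicates 1, 2 and 3 and 2, 3 and 17 in LPS + Siponimod replicates 1, 2 and 3. Pdgfra, the receptor of oligodendrocyte progenitors, had 5, 4 and 284 counts in LPS + DMSO and 1, 4 and 81 in LPS + Siponimod, Olig2 had 1, 2 and 240 and 1, 3 and 40, and Sox10 had 0, 3 and 96 and 0, 3 and 15. These 4 genes were picked after their values were seen. Normalized counts (CPM, scaled by TMM library sizes) of all 11 summed to 149.9, 136 and 149 CPM in LPS + DMSO and to 49.2, 67.8 and 60 CPM in LPS + Siponimod, most of it from Cnp, and without Cnp to 5.37, 5.43 and 36.1 CPM and to 11.4, 10.3 and 22.6 CPM. Of the 4 of these 11 markers with enough reads to be tested, Mbp rose and Cnp fell. Mog, a marker of mature oligodendrocytes, was at 0 in 5 of 6 libraries and at 1 count in LPS + Siponimod replicate 1.

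The markers of other cells did not share one pattern over all lists. In replicate 3 of each condition the sums were highest for neuron markers and for astrocyte markers without Slc1a3. The sums of endothelial and microglia markers were lowest there. Among the LPS + DMSO libraries, the sums of all astrocyte markers, of neuron markers without Tubb3 and of fibroblast and mural markers were highest in replicate 1. The 12 astrocyte markers, led by Slc1a3, summed to 42.6, 21.1 and 25.2 CPM in LPS + DMSO and 27.6, 26.9 and 59.4 CPM in LPS + Siponimod, and Gjb6 and Ntsr2 were at 0 in all 6 libraries. Without Slc1a3 their sums were 2.08, 1.01 and 9.72 CPM and 1.33, 0.851 and 3.71 CPM. Neuron markers (10 genes, led by Tubb3) summed to 9.47, 6.44 and 14.2 CPM and to 4.74, 8.27 and 16.3 CPM. Fibroblast and mural markers (9 genes, with Rgs5 at 0) summed to at most 12.2 CPM. Of them Dcn, a matrix proteoglycan, was at 3, 0 and 4 counts in LPS + DMSO and at 456, 49 and 178 in LPS + Siponimod and rose, and Fbln1 fell (log2 FC -1.43). The 6 endothelial markers with a row, led by Cdh5 and with Kdr at 0, summed to 202.6, 249 and 150.3 CPM in LPS + DMSO and 96.8, 118.4 and 93.3 CPM in LPS + Siponimod, lowest in replicate 3 of each condition, and Flt1 fell (log2 FC -2.06). The microglia label held: all 16 microglia markers had reads in every library, and they summed to 13820, 11540 and 7214 CPM in LPS + DMSO and 5824, 7334 and 3981 CPM in LPS + Siponimod, led by Csf1r. Within that label, 13 of the 16 markers had a log2 FC below 0 for siponimod, and the median was -1.03. By the test used below, Itgam, Aif1 and Cx3cr1 were called lower (18.8%, against 11.7% of all genes), 0 were called higher and 13 did not pass. With the replicate number as a block 9 of the 16 were called lower and 1 higher (all genes 16.4% and 17.7%), and without LPS + DMSO replicate 3 there were 7 lower (all genes 14.5%).

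Changes are given as log2 fold changes (log2 FC) of LPS + Siponimod against LPS + DMSO with their standard errors (SE), from edgeR's quasi-likelihood test across 11977 genes. A gene is said to have risen or fallen where its adjusted p was at most 0.05 and its fold change at least 1.5. By this rule 13.6% of the genes tested rose and 11.7% fell. The S-phase members moved both ways: 3 of 19 rose (Pcna, Fen1 and Mcm7; 15.8%), 6 fell (Tyms, Mcm3, Pola1, Mcm6, Mcm5 and Rrm1; 31.6%) and 10 did not pass the test. Of the 22 mitotic members 0 rose, 3 fell (Aurkb, Tpx2 and Aurka; 13.6%) and 19 did not pass. At an unadjusted p under 0.05, 4 S-phase members were higher and 7 lower, and 0 mitotic members were higher and 4 lower, against 22% and 21.7% of all genes. DESeq2, limma-voom and the likelihood ratio test also called 0 mitotic members higher. In this fit the share of mitotic members that fell is close to that of all genes, and the share of S-phase members that fell is above it. With the replicate number as a block, 5 of the 22 mitotic and 7 of the 19 S-phase members were called lower, against 16.4% of all genes. The block called 0 and 4 of them higher, against 17.7%. The median log2 FC was -0.37 for the S-phase members, -0.97 for the mitotic members and -0.02 for all genes tested.

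**Figure D2:**
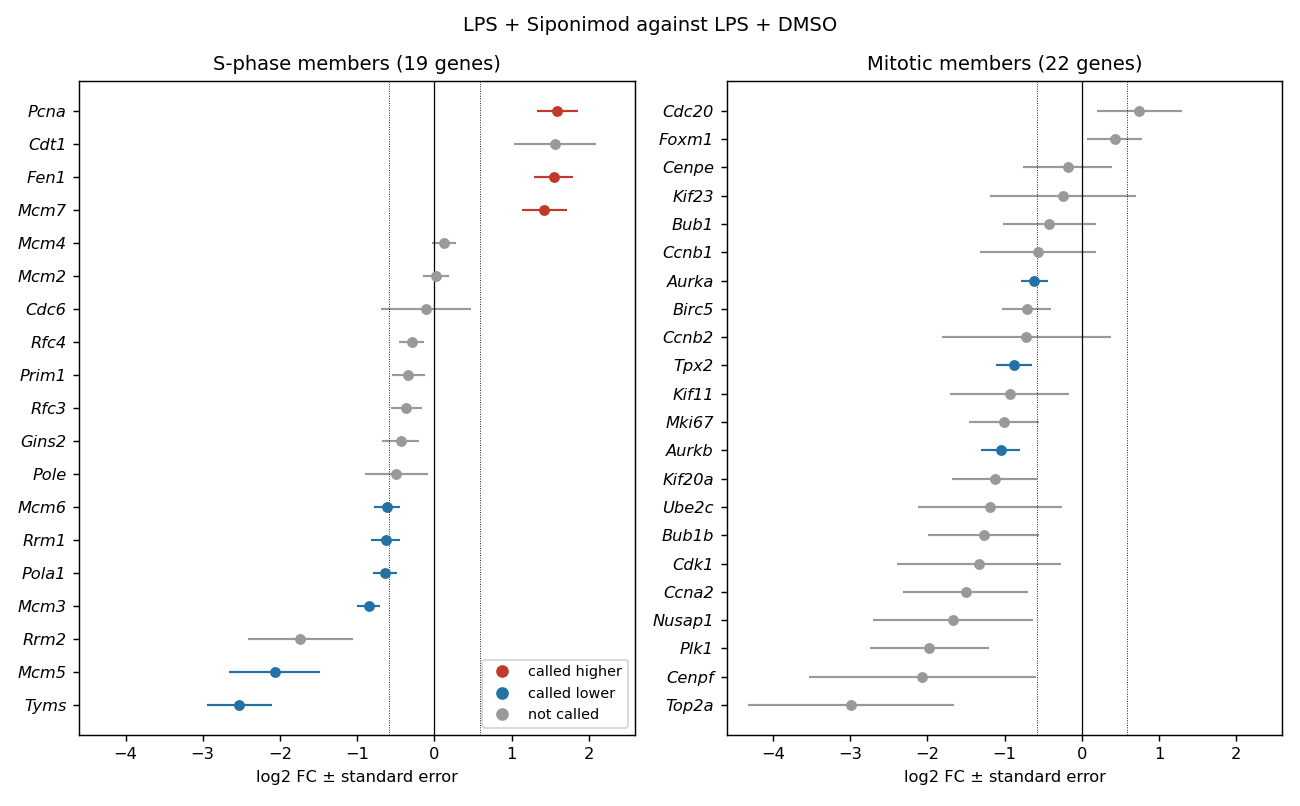
Log2 FC of LPS + Siponimod against LPS + DMSO (horizontal axis, ± standard error) for the 19 S-phase members (left) and the 22 mitotic members (right), red where called higher, blue where called lower and grey where not called; dotted lines mark a fold change of 1.5. On the left, 3 members lie to the right and 6 to the left as called genes, and on the right 3 are called lower and the grey members have the widest error bars.

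Precision differed between the sets. The median SE of a log2 FC was 0.24 for the S-phase members, 0.74 for the mitotic members and 0.23 for all genes. Mitotic members had few reads, with a median of 1.29 CPM against 8.11 CPM for the S-phase members and 21.5 CPM for all genes. Their spread in the LPS + DMSO libraries was also wide, with a median SD of log2 CPM of 1.2 (n = 3) against 0.27 for the S-phase members and 0.29 for all genes. In LPS + Siponimod the median SD was 0.53 for the mitotic and 0.22 for the S-phase members. The log2 FC of the S-phase gene Mcm6, which passed at -0.615, was smaller in size than the median SE of the mitotic members. Aurka, a mitotic member with a smaller SE (0.18), passed at the same log2 FC. How often a change of this size would be detected in the mitotic members was not tested.

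Of the clamp and polymerase genes, Pcna and Fen1 rose and Pola1 fell, and 4 of the 7 did not pass. Pcna, the sliding clamp, had 1141, 983 and 1199 counts in LPS + DMSO replicates 1, 2 and 3 and 3789, 2793 and 5049 in LPS + Siponimod replicates 1, 2 and 3. Every LPS + Siponimod library was above every LPS + DMSO library, and the level rose from 29.5 ± 3.55 to 89.1 ± 31 CPM (SD, n = 3), a log2 FC of 1.59 ± 0.27 (SE; edgeR adjusted p = 0.0116). Fen1, the flap endonuclease that trims Okazaki fragments, had 257, 316 and 300 counts and then 1392, 700 and 907. It rose from 7.74 ± 0.698 to 22.6 ± 7.15 CPM (log2 FC 1.54 ± 0.26, edgeR adjusted p = 0.0115), again without overlap of the conditions. Pola1, the catalytic subunit of the polymerase that starts new strands, fell instead, with 343, 305 and 298 counts in LPS + DMSO and 261, 243 and 209 in LPS + Siponimod. Its log2 FC was -0.64 ± 0.16 (edgeR adjusted p = 0.032). The primase subunit Prim1 (log2 FC -0.34), the leading-strand polymerase Pole (-0.49) and the clamp loader subunits Rfc3 (-0.37) and Rfc4 (-0.30) did not pass the test.

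The 6 subunits of the MCM2-7 helicase, which works as one ring with 1 copy of each, did not move together. Mcm7 rose, Mcm3, Mcm5 and Mcm6 fell, and Mcm2 and Mcm4 did not pass the test. Mcm7 had 194, 262 and 377 counts in LPS + DMSO and 888, 741 and 981 in LPS + Siponimod, so that its lowest LPS + Siponimod library was well above its highest LPS + DMSO library. The level went from 7.39 ± 2.51 to 19.9 ± 3.72 CPM (log2 FC 1.43 ± 0.29, edgeR adjusted p = 0.0179). Mcm3 had 832, 925 and 778 counts and then 612, 607 and 434, a fall from 22.5 ± 1.53 to 12.4 ± 1.63 CPM (log2 FC -0.85 ± 0.15, edgeR adjusted p = 0.0134). For Mcm6 the counts were 391, 534 and 459 in LPS + DMSO and 368, 327 and 359 in LPS + Siponimod (log2 FC -0.61 ± 0.17, edgeR adjusted p = 0.0404), without overlap. Mcm5 was at 88, 268 and 271 counts and then at 29, 64 and 78 (log2 FC -2.07 ± 0.58, edgeR adjusted p = 0.0434). Mcm2 did not differ detectably, with 671, 756 and 507 counts in LPS + DMSO and 837, 741 and 722 in LPS + Siponimod, 17.1 ± 3.11 and 17.4 ± 0.728 CPM (log2 FC 0.02 ± 0.17, edgeR adjusted p = 0.93), and Mcm4 had a log2 FC of 0.12.

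The divergence within the helicase can be read in each library as the ratio of Mcm7 to Mcm5 counts, which needs no normalization between libraries. It was 2.21, 0.978 and 1.39 in LPS + DMSO and 30.6, 11.6 and 12.6 in LPS + Siponimod. Likewise the ratio of Pcna to Tyms counts was 1.64, 1.96 and 3.36 in LPS + DMSO and 44.6, 16.9 and 74.2 in LPS + Siponimod. Both pairs of genes were picked after their values were seen, and a ratio of counts depends on transcript length as well, so that only its change between conditions can be read.

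Of the 3 nucleotide supply genes, Tyms and Rrm1 fell and Rrm2 did not pass the test. Tyms, thymidylate synthase, had 698, 502 and 357 counts in LPS + DMSO and 85, 165 and 68 in LPS + Siponimod. It fell from 13.8 ± 4.67 to 2.39 ± 1.13 CPM (log2 FC -2.53 ± 0.42, edgeR adjusted p = 0.0113), and its highest LPS + Siponimod library lay below its lowest LPS + DMSO library. Rrm1, the large subunit of ribonucleotide reductase, fell with a log2 FC of -0.63 ± 0.18 (edgeR adjusted p = 0.047). Rrm2, the small and cell cycle-limited subunit, had 51, 190 and 320 counts and then 51, 53 and 90, with a log2 FC of -1.74 and an edgeR adjusted p of 0.0993. Its libraries overlapped, and it passed with the replicate number as a block (log2 FC -1.49, adjusted p = 0.0449) and without LPS + DMSO replicate 1 (log2 FC -2.16, adjusted p = 0.0417). Rrm2 did not pass in the other 5 fits without 1 library (highest edgeR adjusted p 0.272).

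Among the origin licensing and firing genes, 0 of the 3 with a row passed the test. Cdt1, which loads the helicase, had 120, 69 and 245 counts in LPS + DMSO and 698, 305 and 516 in LPS + Siponimod. Its conditions did not overlap (log2 FC 1.57 ± 0.53, edgeR adjusted p = 0.0707), and it passed with the replicate block (log2 FC 1.68, adjusted p = 0.0146) and without LPS + DMSO replicate 3 (log2 FC 2.19, adjusted p = 0.0233). Cdt1 did not pass in the other 5 fits without 1 library (highest edgeR adjusted p 0.215). Cdc6, the partner of Cdt1 in loading, had a log2 FC of -0.11, and Gins2, a subunit of the active helicase, one of -0.44. With the block, 4 S-phase members were called higher and 7 lower, where 17.7% of all genes were called higher and 16.4% lower. Counted by non-overlap of the conditions in CPM, 4 S-phase members were higher and 7 lower, against 25.3% and 24% of all genes.

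**Figure D3:**
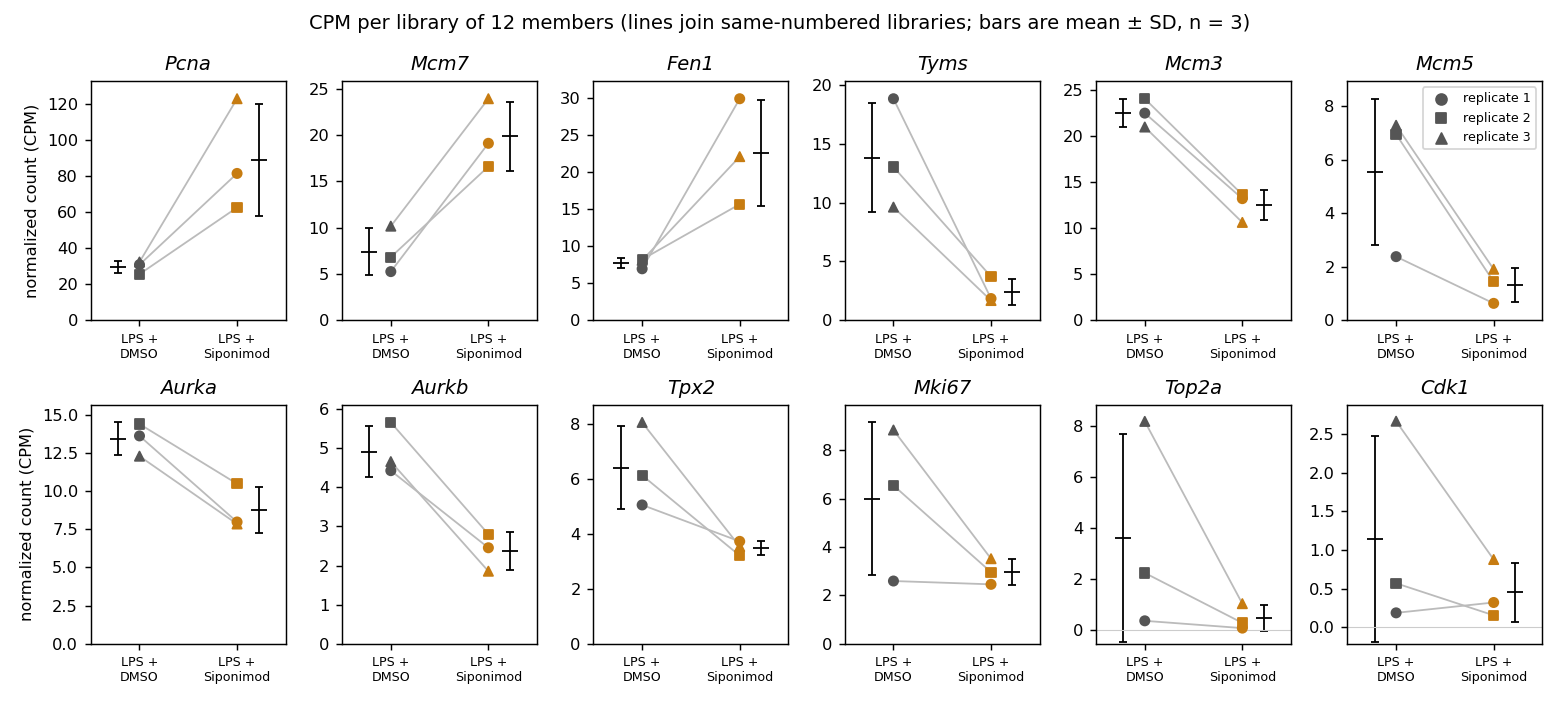
Normalized counts (CPM, vertical axes from 0 or below where an error bar needs it) of 12 members in the 3 LPS + DMSO libraries (grey) and the 3 LPS + Siponimod libraries (orange); symbols give the replicate number, lines join equal numbers and black bars are mean ± SD (n = 3). Pcna, Mcm7 and Fen1 lie higher with siponimod in all 3 pairs and Tyms, Mcm3, Mcm5, Aurka, Aurkb and Tpx2 lower, while Mki67, Top2a and Cdk1 overlap between the conditions.

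Leaving out 1 library took away between 3 and 12 of the 12 calls, depending on the library: 12 without LPS + DMSO replicate 2, 10 without LPS + Siponimod replicate 1, 8 without LPS + Siponimod replicate 3, 5 without LPS + DMSO replicate 1, 5 without LPS + Siponimod replicate 2 and 3 without LPS + DMSO replicate 3. Without LPS + DMSO replicate 2, 0 of the 12 called members passed, in a fit that called 3.72% of all genes higher and 1.44% lower, and the edgeR adjusted p was then 0.0602 for Pcna, 0.0553 for Fen1, 0.0758 for Mcm7 and 0.066 for Mcm3. Pcna and Fen1 passed in each of the other 5 fits. Without LPS + Siponimod replicate 1, 0 of the 6 S-phase members that fell passed, in a fit that called 1.52% of all genes lower, and the log2 FC of Tyms was -2.37 there (edgeR adjusted p = 0.0589), and 2 of the 6 passed without LPS + Siponimod replicate 2 (11.6% of all genes called lower) and 2 without LPS + Siponimod replicate 3 (2.24%). Mcm7 also missed the threshold without LPS + Siponimod replicate 1 and without LPS + Siponimod replicate 3, and Mcm6 missed it in all 6 fits. Of the 12 called members each kept the direction of its log2 FC under every alternative. With replicate 3 of both conditions left out, 11.1% of 12032 genes rose and 8.17% fell; Pcna, Fen1 and Mcm7 rose (log2 FC 1.36, 1.60 and 1.57) and Tyms and Mcm3 fell (-2.52 and -0.79) among the S-phase members.

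Most mitotic members had a lower mean with siponimod, but few of them passed the test, and the size of the difference moved with the replicate 3 library of LPS + DMSO. The log2 FC was below 0 in 20 of the 22 (all but Foxm1, a transcription factor of mitotic genes, and Cdc20, an activator of the anaphase-promoting complex), and 3 of them passed the test. Within the pairs of equal replicate number the median log2 difference was 0.10 in pair 1, -0.81 in pair 2 and -1.29 in pair 3, with 11, 19 and 20 of the 22 genes lower. For the S-phase members the pair medians were -0.24, -0.57 and -0.44. Of the 22 mitotic members, 20 (90.9%) were highest in replicate 3 among the LPS + DMSO libraries and 0 in replicate 1, against 40.8% and 34.8% of all genes. Among the LPS + Siponimod libraries 17 (77.3%) were highest in replicate 3, against 30.2% of all genes. The 19 S-phase members had no such leaning, with 8 highest in LPS + DMSO replicate 3 and 7 in LPS + Siponimod replicate 3.

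Summed over the 22 mitotic members, the normalized counts were 34.6, 52.1 and 85.8 CPM in LPS + DMSO and 30.2, 31.1 and 39.2 CPM in LPS + Siponimod. The sums of the 19 S-phase members were 224.1, 224.5 and 222.5 CPM and 268.5, 216.8 and 295.7 CPM, and without Pcna 193.3, 198.9 and 190.3 CPM and 186.9, 154.2 and 172.6 CPM. The library with the highest mitotic sum was the one with the most Olig1, Olig2, Pdgfra and Sox10 reads. Elsewhere the order differed. LPS + DMSO replicate 2, with few of these reads, had 52.1 CPM, and LPS + Siponimod replicate 3, with more of them, had 39.2 CPM. These 4 markers were picked after their values were seen. The sum of all 11 oligodendrocyte lineage markers was 149.9, 136 and 149 CPM in the LPS + DMSO libraries and was not highest in replicate 3. Most of that sum came from Cnp. Without Cnp it was 5.37, 5.425 and 36.12 CPM in LPS + DMSO, highest in replicate 3, and 11.39, 10.31 and 22.58 CPM in LPS + Siponimod. The part of other dividing cells in the mitotic values was not tested. Without LPS + DMSO replicate 3, the median log2 FC of the mitotic members was -0.14, 11 of 22 lay below 0, and Aurka and Aurkb fell, in a fit that called 15.9% of 12242 genes higher and 14.5% lower. With replicate 3 left out of both conditions, 19 mitotic members were tested, 0 passed in either direction by edgeR's test, and the median was -0.48.

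**Figure D4:**
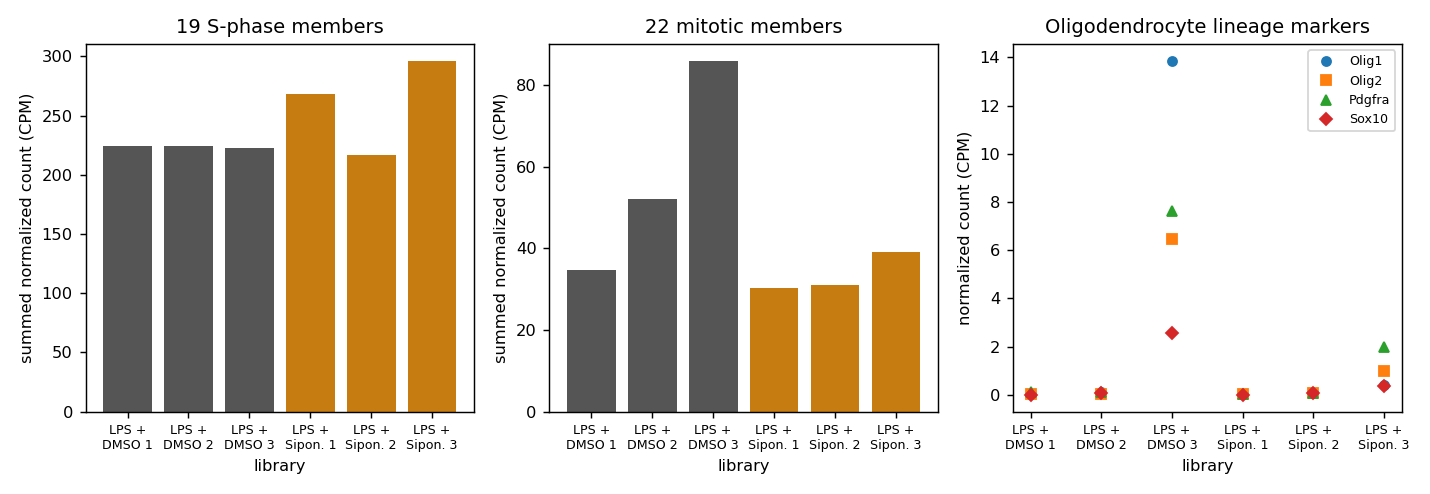
Summed normalized counts (CPM) of the 19 S-phase members (left bars) and of the 22 mitotic members (middle bars) in each library, and normalized counts of the oligodendrocyte lineage markers Olig1, Olig2, Pdgfra and Sox10 (right, points); grey bars are LPS + DMSO and orange bars LPS + Siponimod. The mitotic sum is highest at 85.8 CPM in LPS + DMSO replicate 3, where these 4 markers, picked from 11 after their values were seen, are highest too, while the S-phase sums of the LPS + DMSO libraries lie between 222.5 and 224.5 CPM.

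Aurkb, Tpx2 and Aurka were the mitotic members that fell. Aurkb, the kinase of the chromosomal passenger complex, had 164, 218 and 173 counts in LPS + DMSO and 114, 125 and 76 in LPS + Siponimod. All its LPS + Siponimod libraries lay below all LPS + DMSO libraries, with a change from 4.91 ± 0.655 to 2.37 ± 0.479 CPM (log2 FC -1.05 ± 0.25, edgeR adjusted p = 0.0275). Tpx2, which activates Aurora A on the spindle, had 187, 236 and 299 counts and then 173, 143 and 145. It fell from 6.41 ± 1.52 to 3.49 ± 0.263 CPM (log2 FC -0.88 ± 0.23, edgeR adjusted p = 0.0376). Aurka, the centrosome and spindle pole kinase, had 505, 555 and 457 counts and then 371, 468 and 322, a fall from 13.4 ± 1.06 to 8.78 ± 1.48 CPM (log2 FC -0.61 ± 0.18, edgeR adjusted p = 0.0447). Unlike most mitotic members, Aurka and Aurkb were not highest in LPS + DMSO replicate 3. Aurka and Aurkb missed the threshold without LPS + DMSO replicate 1, without LPS + DMSO replicate 2, without LPS + Siponimod replicate 1 and without LPS + Siponimod replicate 3 (highest adjusted p 0.161 and 0.118), and Tpx2 in every fit without 1 library except that without LPS + DMSO replicate 1 (highest adjusted p 0.114).

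Mki67 and Top2a, both used as markers of cycling cells, did not pass the test. Mki67, which encodes the Ki-67 antigen, had 96, 252 and 328 counts in LPS + DMSO and 114, 132 and 144 in LPS + Siponimod. Its LPS + DMSO replicate 1 lay among the LPS + Siponimod libraries (5.99 ± 3.16 against 2.97 ± 0.529 CPM, log2 FC -1.01 ± 0.45, edgeR adjusted p = 0.14). Without that library it passed (log2 FC -1.35, edgeR adjusted p = 0.0389), in a fit that called 5.13% of all genes lower. Mki67 did not pass in the other 5 fits without 1 library (highest edgeR adjusted p 0.334). Top2a, the topoisomerase that untangles sister chromosomes, had 13, 86 and 304 counts and then 3, 12 and 42. It was lower with siponimod in all 3 pairs, yet replicate 3 of LPS + Siponimod was above replicate 1 of LPS + DMSO, and the log2 FC of -2.99 ± 1.33 did not pass (edgeR adjusted p = 0.136; DESeq2 adjusted p = 0.0359). With the replicate block, Top2a passed (log2 FC -2.91, adjusted p = 0.00614), as did the S and G2 phase cyclin Ccna2 (log2 FC -1.50 with and without the block, adjusted p = 0.0361 with it and 0.201 without it). The block called 5 mitotic members lower and 0 higher, against 16.4% and 17.7% of all genes.

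CDK1 and its cyclins did not pass either. Cdk1, the kinase that starts mitosis, had 7, 22 and 99 counts in LPS + DMSO and 15, 7 and 36 in LPS + Siponimod (log2 FC -1.33 ± 1.06, edgeR adjusted p = 0.371). Ccnb1, its mitotic cyclin, had 14, 39 and 112 counts and then 49, 28 and 53 (log2 FC -0.57 ± 0.75, edgeR adjusted p = 0.595). For both genes the conditions overlapped, and pair 1 was higher with siponimod (log2 0.64 and 1.37) while pairs 2 and 3 were lower. The same held for Ccnb2, for the kinetochore motor Cenpe and for the spindle motor Kif11, which were higher with siponimod in pair 1 (log2 1.47, 1.19 and 1.00) and lower in pairs 2 and 3. It also held for Ube2c, Cenpf and Nusap1 (log2 0.467, 0.605 and 0.4 in pair 1). Bub1 was higher in pair 1 (log2 0.382), nearly equal in pair 2 (-0.002) and lower in pair 3.

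The other mitotic members ranged widely. The Polo-like kinase Plk1 had a log2 FC of -1.98 (edgeR adjusted p = 0.0995), the kinetochore protein Cenpf one of -2.06 and the spindle protein Nusap1 one of -1.67, each from libraries with few reads, as in Cenpf with 2, 22 and 125 counts in LPS + DMSO and 5, 3 and 32 in LPS + Siponimod. The checkpoint kinases Bub1b and Bub1 had log2 FC of -1.27 and -0.42, the ubiquitin-conjugating enzyme Ube2c -1.18, and the kinesins of the central spindle Kif20a and Kif23 -1.13 and -0.24. Birc5, the passenger protein survivin, had separate conditions with a log2 FC of -0.71 but missed the threshold (edgeR adjusted p = 0.137), so that by non-overlap 0 mitotic members were higher and 4 lower, against 25.3% and 24% of all genes. Cdc20 was at 43, 47 and 128 counts and then at 153, 85 and 188, higher in all 3 pairs (log2 FC 0.75, edgeR adjusted p = 0.336), and Foxm1 had a log2 FC of 0.43.

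**Figure D5:**
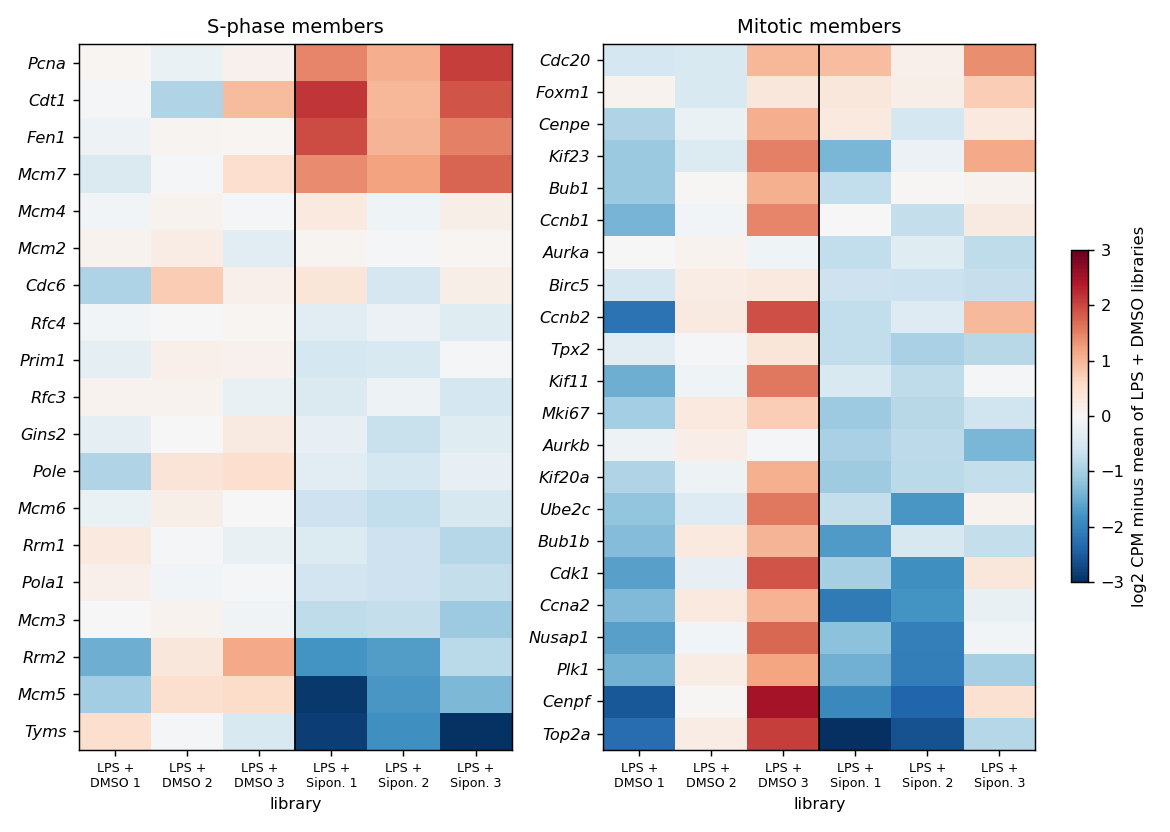
Log2 CPM of each member minus its mean in the 3 LPS + DMSO libraries (colour, red higher and blue lower), for 19 S-phase members (left) and 22 mitotic members (right) in the 6 libraries (columns), ordered by log2 FC. On the left the colours change at the line between the conditions in genes such as Pcna and Tyms, whereas on the right LPS + DMSO replicate 3 is the highest of the LPS + DMSO columns in 20 of 22 genes.

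Further genes of the same processes were read from lists. Of 46 other replication genes tested, 3 rose (6.52%) and 10 fell (21.7%), against 13.6% and 11.7% of all genes, with a median log2 FC of -0.28. Rpa2, a subunit of the single-strand binding complex, rose from 148, 150 and 223 counts to 788, 531 and 769 (log2 FC 1.78 ± 0.27, edgeR adjusted p = 0.00966), and Dbf4, the activator of the origin-firing kinase CDC7, from 135, 188 and 163 to 619, 418 and 482 (log2 FC 1.42 ± 0.21, edgeR adjusted p = 0.00937). Pole4, an accessory subunit of the leading-strand polymerase, also rose (log2 FC 0.94). Tk1, the thymidine kinase of S-phase, fell from 105, 275 and 199 counts to 18, 54 and 36 (log2 FC -2.63 ± 0.54, edgeR adjusted p = 0.0192), as did the fork protection gene Timeless (-1.88) and the fork adaptor Wdhd1 (-1.30). With the replicate block 5 of the 46 were called higher and 12 lower, against 17.7% and 16.4% of all genes. Without LPS + DMSO replicate 3, 4 of the 46 were called higher and 7 lower, against 15.9% and 14.5% of all genes in that fit. With replicate 3 left out of both conditions, 3 of 45 were called higher and 4 lower, against 11.1% and 8.17%.

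Of 56 other mitotic genes tested, 4 rose (7.14%) and 5 fell (8.93%), both shares below those of all genes, with a median log2 FC of -0.57. The condensin subunits Ncapd2 and Ncapg2 rose (log2 FC 1.05 and 1.00), and so did Cks1b, a small subunit of cyclin-dependent kinases, from 82, 110 and 169 counts to 582, 430 and 665 (log2 FC 2.00 ± 0.34, edgeR adjusted p = 0.0123). The spindle protein Dlgap5 fell from 381, 419 and 410 counts to 192, 266 and 159 (log2 FC -1.20 ± 0.21, edgeR adjusted p = 0.0136), and the kinesin Kifc1 (-1.57) and the cytokinesis regulator Ect2 (-1.88) fell as well. With the replicate block 6 were called higher and 13 lower, against the same 17.7% and 16.4%. Without LPS + DMSO replicate 3, 9 were called higher and 7 lower, shares near the 15.9% and 14.5% of all genes in that fit, and the median was -0.23.

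Regulators of these genes were read in the same way. Of 18 genes of the RB, E2F and MuvB families tested, 4 rose (22.2%) and 2 fell (11.1%), against 13.6% and 11.7% of all genes. Lin54, the DNA-binding subunit of the MuvB core that recognizes CHR elements, rose from 843, 792 and 800 counts to 2601, 1820 and 1937 (log2 FC 1.15 ± 0.15, edgeR adjusted p = 0.00733), and the MuvB subunit Lin52 (0.90) and the E2F partner Tfdp2 (1.69) rose too. E2f2, an activating E2F factor, fell from 36, 49 and 22 counts to 8, 7 and 8 (log2 FC -2.42 ± 0.44, edgeR adjusted p = 0.014), and the pocket protein Rbl1 fell (-0.95). Of 16 G1 cyclins, cyclin-dependent kinases and their inhibitors, 4 rose (25%) and 4 fell (25%), against the same 13.6% and 11.7% of all genes. Among those that rose were the inhibitor Cdkn1c, which went from 6, 2 and 14 counts to 2266, 1134 and 632, and Cdkn1b (log2 FC 1.53) and Cdkn2d (1.58). The phosphatase gene Cdc25a (-1.29), the G1 kinase gene Cdk6 (-1.52) and the D-type cyclin gene Ccnd3 (-1.56) fell. With the replicate block, 5 of the 18 were called higher and 3 lower, and 5 of the 16 higher and 5 lower. All genes were at 17.7% and 16.4%. With replicate 3 left out of both conditions, 5 of the 18 were called higher and 3 lower, and 4 of the 16 higher and 2 lower. All genes were at 11.1% and 8.17% in that fit.

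Among 19 genes of homologous recombination and the S-phase checkpoint, 3 rose (15.8%) and 1 fell (5.26%), which is near and below the shares of all genes. The checkpoint kinase Chek1 (log2 FC 1.48), the BRCA1 partner Bard1 (1.88) and the ubiquitin ligase Rad18 (1.06) rose, and the recombination helicase Rad54l fell (-1.18). The replicate block called 3 higher and 3 lower, against 17.7% and 16.4% of all genes. Of the 27 genes that the rule names in these 5 lists, Dbf4, Lin54, Cdkn1c, Cdkn1b and Cdkn2d kept their call in all 6 fits without 1 library, 21 lost it without LPS + DMSO replicate 2 and 20 without LPS + Siponimod replicate 1.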

How the data were processed

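Libraries were prepared from 150 ng of total RNA with mRNA capture. The authors demultiplexed with bcl2fastq (2.20.0.422), mapped reads to the rat genome mRatBN7.2 with CLC Genomics Workbench and deposited total read counts per gene, not normalized. How reads matching several genes, strand or introns were counted is not given in the sources used here. In 1 table, 1 row without a name or value was left out. The RNA harvest time is not in the labels.

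The counts were analysed in R 4.3.3 with edgeR 4.0.16, limma 3.58.1 and DESeq2 1.42.0. filterByExpr (minimum count 10, minimum total 15) kept 11977 of 23139 genes. Sizes were scaled by TMM (factors 0.939 to 1.056), and glmQLFit and glmQLFTest were run with the condition as the only term and Benjamini-Hochberg adjustment over all genes tested. A gene was called at an adjusted p up to 0.05 together with a 1.5-fold change or more. The SE is the size of the log2 FC divided by the square root of F. Log2 CPM for the values per pair used a prior count of 2. In simulated data of 11977 genes, 9 of 100 genes changed 2-fold and 64 of 100 changed 4-fold were recovered, with 4 unchanged genes called. The changed genes were drawn only from those above a minimum expected count, and all other genes were left unchanged. A far smaller share of genes was thus changed than was called in the data, where recovery can differ. Recovery of members with fewer reads was not tested.

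The study's methods call the libraries of a condition biological replicates; whether they came from separate litters is not given in the sources used here. No 2 libraries of the same condition were duplicates (chi-square per degree of freedom at least 136). Same-numbered libraries deviated together from their condition means (r = 0.42, 0.545 and 0.611 for numbers 1, 2 and 3). For unequal numbers r was -0.534 to 0.0856. Deviations within a condition cancel out, so that low values for unequal numbers follow in part from high values for equal ones. The number was taken as pairing the libraries, which comes from the data, not from a label. The main fit did not use this pairing, and the replicate block did. The members, the gene lists, the motifs and the tests were chosen with earlier results of these data known. Full values go to up to 4 called members per set and direction with the smallest p, and to Mki67, Top2a, Pcna, Mcm2, Cdk1 and Ccnb1; other lists give up to 3 called genes per direction. Counts of Mcm5, Cdt1, Rrm2, Cdc20 and Cenpf and the oligodendrocyte marker counts are given outside this rule, after their values were seen. Promoter windows come from RefSeq (GRCr8), with the first listed start of each gene. 1 further gene list is not reported here.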

Additional observations from a re-analysis of the deposited data

How the results depend on the processing

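The number of S-phase members called higher was 3, and between 0 and 4 with 1 library left out; that of those called lower was 6, between 0 and 4 with 1 library left out, 2 with no filter beyond 1 count and 2 without replicate 3 in both conditions, which was chosen after seeing the data. For mitotic members called lower the number was 3, between 0 and 2 with 1 library left out, 1 with no filter beyond 1 count, 5 with the replicate block and 0 without replicate 3 in both conditions. Across all genes tested, the calls with 1 library left out ran from 469 to 1941 higher and from 182 to 1772 lower, each fit holding fewer libraries. The median log2 FC of the mitotic members, -0.97, ran from -1.293 to -0.136, and its difference from that of the S-phase members, -0.605, from -0.833 to 0.135, the values nearest to and above 0 being those without LPS + DMSO replicate 3. Of the 41 members, 30 kept the sign of their log2 FC in every fit that tested them, 27 of which were tested under every alternative (Bub1b, Plk1 and Nusap1 were not), and the 11 that did not keep it were not called. By another tool, limma-voom lost the call of Mcm5, the likelihood ratio test lost those of Mcm6, Pola1 and Aurka and gained Cdt1, and DESeq2 gained Cdt1, Rrm2 and Top2a and lost 0. The replicate block changed the calls of Cdt1, Rrm2, Top2a and Ccna2 and of no other member. Mitotic members had few reads and a wide spread between libraries, and their median SE of 0.735 was above the size of the log2 FC of Mcm6 (-0.615). Detection of such changes in the mitotic members was not tested. No sample had an unstimulated or siponimod-only counterpart here, and the 3 libraries per condition limit every test.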
